A study of Mus musculus with 6 samples.

Results

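Experiment 1 of the series measured RNA of sorted double-positive thymocytes on 4 of the 6 arrays, namely a Sox13 transgenic and a wild-type sample on each of the Affymetrix Mu11K A and Mu11K B arrays. The members were all arrays of the Mu11K types, and every probe set on them was described. The double-positive thymocytes were sorted by flow cytometry from C57BL/6 females that were 6 weeks old, either carrying a Sox13 transgene or wild-type littermates. Each sort started from a pool of at least 2 mice, and neither the promoter of the transgene nor the number of founder lines is given in the sources used here. The other 2 arrays, U74A arrays of experiment 2 with 1 array per genotype, are used below for side by side values. Mu11K A and Mu11K B carry different probe sets, so each comparison had 1 transgenic and 1 wild-type array and no replicate check. All differences are therefore given as values without a test.

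Thymocytes pass from a double-negative stage, in which Notch signals and the pre-T cell receptor direct development, to the double-positive stage, in which cells carry CD4 and CD8 and rearrange the T cell receptor alpha locus. Cells of the gamma-delta lineage branch off before the double-positive stage. Sox13, a transcription factor of the HMG-box family, is tied to the gamma-delta lineage, and the question addressed was which genes differ when alpha-beta lineage cells express it from a transgene.

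After control probe sets were left out, 6508 probe sets of Mu11K A and 6540 of Mu11K B were used. Intensities were scaled so that the 2% trimmed mean of an array was 500, and values under a floor of 100 were set to 100. On Mu11K A, 3494 probe sets lay above the floor in the transgenic and 3737 in the wild-type sample, against 3067 and 3359 on Mu11K B. Both pairs had nearly equal deposited trimmed means, at 2476 and 2478 on Mu11K A and 2462 and 2462 on Mu11K B. Their medians differed more, at 646.6 in the transgenic and 815 in the wild-type sample on Mu11K A, and 396.3 and 544.5 on Mu11K B. The deposited wild-type values were all whole numbers, whereas 10.3% and 10.6% of the transgenic values were whole. On U74A the shares were 9.70% in the transgenic and 9.65% in the wild-type sample. On Mu11K the form of the deposited values thus differed with genotype. Any part of it in the Mu11K ratios cannot be told apart from genotype. A low intensity is no proof of a transcript. Sry, a Y-linked gene that female mice lack, read 242.3 in the transgenic and 383.9 in the wild-type sample on Mu11K B.

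The labelled cell type matched its markers. All 9 double-positive thymocyte markers on the arrays lay above the floor in both samples, and their summed intensity was 98086 in the transgenic and 95375 in the wild-type sample. The coreceptor Cd4 read 7854 and 7876, and Cd8a read 15638 and 16859. Of the markers of other cells, 3 of 5 B cell markers lay above the floor in both samples, with sums of 14403 and 10979 and with Cd79a and Pax5 at the floor. The sum of B cell markers was made up mostly of Ighm. Of 7 myeloid markers, 4 lay above the floor in the transgenic and 3 in the wild-type sample, with sums of 2036 and 2426, and Adgre1, C1qa and Csf1r were at the floor in both. Of 4 erythroid markers 2 lay above the floor, with sums of 2135 and 567.9, and Alas2 and Epor were at the floor. Of 5 stromal markers, only Col1a1 of the wild-type sample passed the floor, at 117.4, and the NK cell marker Klrb1c was at the floor. Of 4 markers of other thymocyte stages, Il2ra and Il7r were at the floor in both samples. Ccr7, of single-positive cells, passed it in the transgenic sample only, at 189.7, and Kit, of double-negative cells, in the wild type only, at 115.8. In bulk samples such as these, fewer cells of a type and less RNA per cell cannot be told apart.

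RNA quality was read from the control probe sets at the 3′ and 5′ ends of the messages. The 3′ to 5′ ratio of beta-actin was 1.08 in the transgenic and 1.32 in the wild-type sample on Mu11K B, and that of Gapdh was 1.18 and 0.870. On Mu11K A the transgenic ratios were 1.09 and 1.00. No wild-type values were available for these control probe sets on Mu11K A, so the RNA quality of that sample could not be read in this way.

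Sox13 itself showed the largest difference of the named genes on Mu11K A. Its intensity was 5951 with the transgene and under the floor without it, at least 59.5-fold more, which matched the labels. Over all probe sets that passed the floor in either sample, more were lower than higher in the transgenic sample. On Mu11K A, 177 of 3882 probe sets were at least 2-fold higher (4.56%) and 455 were at least 2-fold lower (11.7%). On Mu11K B, 220 of 3577 were higher (6.15%) and 498 lower (13.9%). Differences of 4-fold or more were seen for 21 higher and 41 lower probe sets on Mu11K A, and for 42 and 70 on Mu11K B.

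Which direction held more probe sets depended on the scaling. Of the 2-fold differences, 28.0% (Mu11K A) and 30.6% (Mu11K B) were higher under the trimmed mean. The same shares were 60.9% and 67.9% when the arrays were scaled to equal medians, 43.1% and 46.7% after quantile normalization, and 40.6% and 44.4% after loess centring. Scaling to the median moved the median log2 ratio of all genes from -0.07 to 0.27, whereas it was 0.06 after quantile normalization and 0.02 after loess centring. Directions of gene groups are therefore read below against the median of all genes.

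**Figure D1:**
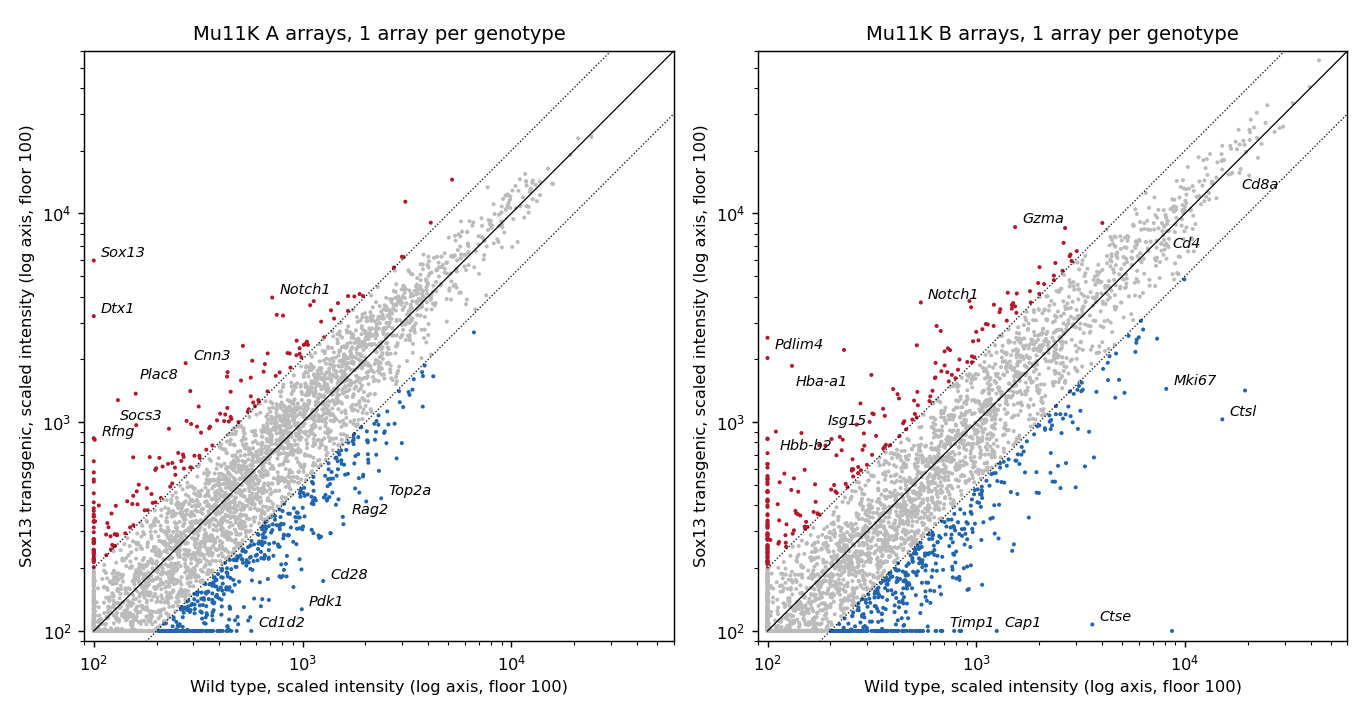
Scaled intensity of each probe set in the transgenic sample (vertical, log axis) against the wild-type sample (horizontal, log axis) on Mu11K A and Mu11K B, 1 array per genotype, with values under the floor of 100 drawn at 100; the solid line marks equality, the dotted lines 2-fold differences, and red and blue points are probe sets at least 2-fold higher or lower. Sox13 and Dtx1 lie at the wild-type floor, and Ctse, Ctsl and Mki67 lie far below the lower line; under median scaling the higher side held more points than the lower side.

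At the level of genes, in which ratios were averaged over the probe sets of a gene that passed the floor in either sample, 3927 of the 6137 genes named on the arrays could be measured. Of these, 206 were at least 2-fold higher (5.25%) and 460 at least 2-fold lower (11.7%). The median log2 ratio was -0.07, with an SD over genes of 0.76, and 1789 genes (45.6%) lay above zero. The arrays of experiment 2 showed a narrower spread, but their deposited values differ in form. Between 17.3% and 29.2% of the values on each Mu11K array were negative, against 0% on U74A, so the spreads are not like for like. There, 46 of 5377 genes were 2-fold higher (0.855%) and 24 lower (0.446%), with an SD over genes of 0.33.

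Socs3 and Plac8 led the higher genes of Mu11K A that were measured above the floor in both samples. Socs3, a feedback inhibitor of cytokine receptor signaling, read 1276 in the transgenic and 130.5 in the wild-type sample, or 9.78-fold more. Plac8, a small cysteine-rich protein of leukocytes, read 1370.0 and 159, or 8.63-fold more. Rfng, a fringe glycosyltransferase that modifies Notch receptors, read 824 and 101, close to the floor in the wild type. Cnn3, an actin-binding calponin, read 1918 and 276, or 6.96-fold more. On U74A the log2 ratios of Rfng and Cnn3 were -0.25 and -0.05, against 3.03 and 2.80 on Mu11K A. The GTP-binding protein Gtpbp1 read 1409.9 and 289.9, and Septin1, a cytoskeletal GTPase of lymphocytes, read 3241 and 806. Zfpm1, also called Fog1, a cofactor of GATA factors, was higher at both of its probe sets, with 930.4 and 229.2 at one and 950.9 and 488.4 at the other. Pmm1, a mannose-handling enzyme, read 399 and 106.

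The leading higher genes of Mu11K B included an effector protease, globins and surface proteins. Gzma, the granzyme A of cytotoxic cells, read 8604 in the transgenic and 1535 in the wild-type sample, or 5.60-fold more. Hbb-b2 read 901.6 and 109.7, and a probe set of Hba-a1 read 1862 and 131, while the other Hba-a1 probe set read 299.4 and 305.5. The erythroid markers Alas2 and Epor were at the floor in both samples, and the part of other cells in the globin values was not tested. Lgals3bp, a secreted binding partner of galectin-3, read 2337 and 519.2, or 4.50-fold more. Cd99, a surface protein of leukocytes, was higher at both probe sets, with 2890.2 and 645.7 at one and 8508 and 2664 at the other, although its log2 ratio on U74A was -0.24. Isg15, an interferon-induced ubiquitin-like protein, read 830.8 and 202.7. Mybl2, a transcription factor of dividing cells, read 973.4 and 267.3, or 3.64-fold more. Cbx1, a heterochromatin protein, read 567.5 and 120.4 at the leading probe set and 1098 and 1970.2 at another, so its probe sets went in opposite directions.

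Pdk1 and Cd28 led the lower genes of Mu11K A. Pdk1, a kinase that limits the entry of pyruvate into mitochondria, read 127 in the transgenic and 992 in the wild-type sample, or 7.81-fold less. Cd28, the costimulatory receptor of T cells, read 174 and 1256, or 7.24-fold less. On U74A the log2 ratios of Pdk1 and Cd28 were -1.27 and -0.43. Ckap5, a microtubule polymerase, read 162 and 905, and Upf2, a factor of nonsense-mediated decay, read 197 and 989. Abca1, a cholesterol exporter, read 141 and 689.5, and Chn1, the chimaerin gene, read 112 and 549. Wdr78, a dynein subunit gene, read 417.1 and 2019.6, and Prpf4b, a splicing kinase, read 116 and 562. Rmi1 of the dissolvasome complex read 131 and 632. Samsn1, an adaptor of lymphocytes, read 294 and 1363, and the cohesin loader Nipbl read 294 and 1362.

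The 3 largest of the lower differences measured above the floor in both samples were those of cathepsin probe sets on Mu11K B. Ctse, an aspartic protease, read 107 in the transgenic and 3598 in the wild-type sample, or 33.5-fold less, with the transgenic value just above the floor. Ctsl, the lysosomal cysteine protease that thymic epithelium uses to make class II ligands, read 1032 and 15094 at one probe set and 1419 and 19386 at the other, or 14.6- and 13.7-fold less. The log2 ratios on U74A were -0.09 for Ctse and -0.25 for Ctsl. Mki67, the antigen of cycling cells, read 1444 and 8130.0, and Top2a, the topoisomerase of dividing cells, read 677.8 and 3663. Chd1, a chromatin remodeler, read 242 and 1487, or 6.14-fold less. Tnfaip3, an inhibitor of NF-kappaB signaling, read 105 and 585.6. Hnrnph1, a splicing regulator, read 614.0 and 3317, or 5.40-fold less, and Rdx, which links actin to the membrane, read 483.4 and 2532. Kcna3, a potassium channel of T cells, was lower at both probe sets, with 178.3 and 802.9 at one and 655.3 and 1541 at the other. Eif5, an initiation factor of translation, read 136.3 and 603.0, and the endosomal Washc2 read 199.8 and 871.6.

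**Figure D2:**
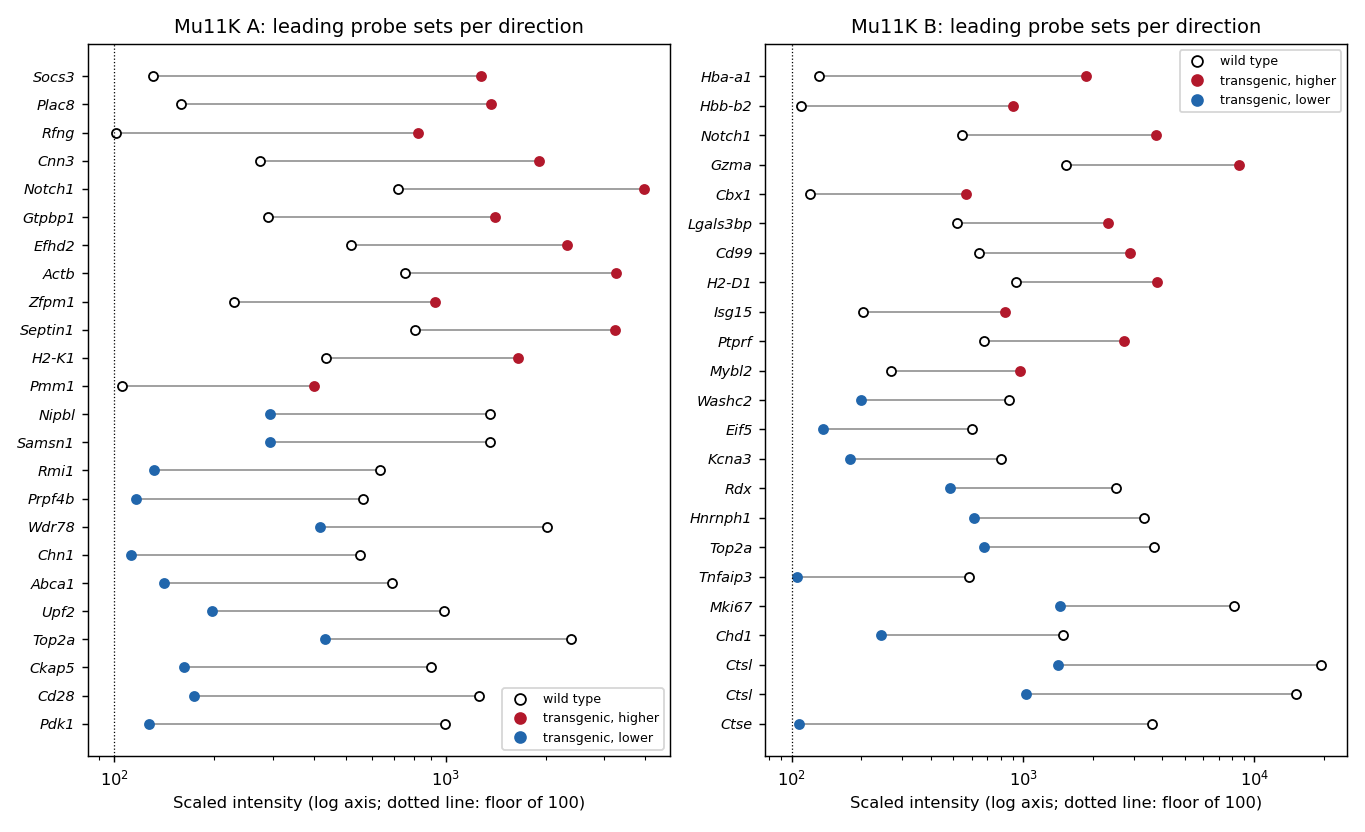
Scaled intensity (log axis) in the wild-type (open circle) and transgenic (filled circle) sample for the named probe sets in each direction that differed most among those above the floor of 100 in both samples, on Mu11K A (left, 12 per direction) and Mu11K B (right, 12 lower and 11 higher), 1 array per genotype. The widest gap on Mu11K B is Ctse, at 3598 in the wild type and 107 in the transgenic sample, and on Mu11K A the widest is Socs3, at 130.5 and 1276.

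A further group of genes passed the floor in 1 genotype only, so that the fold was taken against the floor. Here and elsewhere, a fold given as at least a value is a bound on floored intensity and not on RNA. Sry, which female mice lack, passed the floor in both samples on Mu11K B, so background can exceed it. Some values under the floor were negative, such as -85.5, -64.6 and -66.6 for Gsk3a, Ass1 and Cic in the wild type. Those of Dtx1 and Pdlim4 were positive, at 65.6 and 86.5. On Mu11K A, 45 probe sets had a 2-fold higher bound and 87 a lower one, and on Mu11K B the numbers were 67 and 149. Dtx1, a ubiquitin ligase of the Notch pathway, read 3221 in the transgenic sample and was at the floor in the wild type, or at least 32.2-fold more. Pdlim4, a PDZ and LIM domain protein, read 2030.0, or at least 20.3-fold more. The kinase Gsk3a was at least 7.11-fold, the urea cycle enzyme Ass1 at least 6.06-fold and the HMG-box repressor Cic at least 4.65-fold higher. On U74A the log2 ratios of Dtx1 and Pdlim4 were 2.72 and 1.04, and those of Gsk3a, Ass1 and Cic were -0.003, 0.11 and -0.17. Gsk3a read 14075 in the transgenic and 14101 in the wild-type sample there. The probe sets of Prpsap1 disagreed: the one at the wild-type floor read 838.4 in the transgenic sample while the other read 232.2 and 272.7. Present in the wild-type sample and at the floor in the transgenic sample were Cap1, a cyclase-associated regulator of actin, at least 12.5-fold lower, and Timp1, an inhibitor of metalloproteases, at least 6.88-fold lower. Cd1d2, a lipid-presenting molecule of the class I type, was at least 5.68-fold lower. Anln, an actin-binding protein of cytokinesis, was at the floor against 455.7 at one probe set and read 253.2 and 776.7 at the other.

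Of the probe sets used, 5293 of 13048 had no gene name, and these include some of the largest differences. On Mu11K B, 1 unnamed probe set was at the floor in the transgenic sample and read 8661 in the wild type, at least 86.6-fold less, and another read 2538 against the floor, at least 25.4-fold more. Of 2348 unnamed probe sets above the floor on Mu11K B, 123 were 2-fold higher (5.24%, against 6.15% of all probe sets) and 335 lower (14.3%, against 13.9%). On Mu11K A the numbers were 7 (2.57%, against 4.56% of all probe sets) and 32 (11.8%, against 11.7%) of 272.

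Promoter sequence is shown for a gene of each direction, chosen because the window holds a match, namely the 250 bases before an annotated start of Plac8 (chr5:100572206-100572455, minus strand) and of Ctsl (chr13:64370521-64370770, minus strand), from RefSeq on the GRCm38.p6 build. Each is written 5′ to 3′ in the direction of the gene, with matches to the HMG-box motifs AACAAT or ACAAAG on either strand in capitals.
Plac8: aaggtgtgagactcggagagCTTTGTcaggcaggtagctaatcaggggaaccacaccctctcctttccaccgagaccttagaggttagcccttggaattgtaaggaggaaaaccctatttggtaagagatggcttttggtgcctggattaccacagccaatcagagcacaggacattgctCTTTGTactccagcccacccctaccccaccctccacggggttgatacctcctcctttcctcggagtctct
Ctsl: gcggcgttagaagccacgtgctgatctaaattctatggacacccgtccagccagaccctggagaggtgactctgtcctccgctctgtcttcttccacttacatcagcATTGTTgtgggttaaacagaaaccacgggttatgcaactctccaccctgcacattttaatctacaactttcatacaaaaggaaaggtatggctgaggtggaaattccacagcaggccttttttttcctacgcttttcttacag
The Plac8 window held 2 ACAAAG matches on the opposite strand, and the Ctsl window held 1 AACAAT match on the opposite strand. The window before another annotated start of Plac8 (chr5:100563097-100563346) held neither motif, nor did the windows of Sox13, Dtx1, Notch1, Gzma and Rag2. The window of Socs3 and 1 of 2 windows of Pdk1 held 1 ACAAAG match. Shares were counted over the full windows of 300 bases, which add 50 bases after the start. AACAAT was found in 10.7% and ACAAAG in 18.7% of the 32851 windows used, which leave out those of 1 chromosome. For genes above the floor the shares were 5.47% and 13.9%. They were 2.19% and 14.9% of the 228 windows of the 2-fold higher genes, of which 163 of 206 had a window. For the 2-fold lower genes, of which 370 of 460 had a window, they were 5.87% and 16.4% of 477 windows. A match describes letters in a window and not a binding site.

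Some genes were read by several probe sets, which share the same 2 samples and are no replicates of them. Over 510 genes with several probe sets above the floor in both samples, the SD of log2 ratios within a gene was 0.41. Of 654 genes with at least 2 probe sets that passed the floor in either sample, 90 had probe sets that were 1 log2 or more apart. Where at least 1 probe set was 2-fold higher (54 genes), all probe sets of the gene had the same sign for 43 genes and all were 2-fold higher for 14. Where at least 1 was 2-fold lower (134 genes), the numbers were 118 and 40. No gene in either group had a probe set past 2-fold in the opposite direction.

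Among the 88 genes with 3 or more probe sets above the floor, 63 had the same sign at all of them. Actb, the cytoplasmic actin, was more than 2-fold higher at all 3, with 14517 in the transgenic and 5205 in the wild-type sample, 11384 and 3109.6, and 3269 and 752. These 3 probe sets are on Mu11K A. The control probe sets for beta-actin were 1.11-, 1.31- and 1.36-fold higher on Mu11K B, which is a separate hybridisation. Both probes and arrays differ between the 2 readings, so the gap in size cannot be assigned to either. H2-D1, a classical class I gene, read 4020.0 and 1653, 1969.8 and 574.3, and 3807 and 927.2. Ptprf, a receptor tyrosine phosphatase, read 2145 and 848.1, 1101 and 317.9, and 2734 and 676.2. All probe sets were 2-fold lower for 7 such genes, namely Dbf4, Jak2, Naa15, Nfatc3, Pik3ca, Rab18 and Rbm39. Nfatc3, a calcium-regulated transcription factor of thymocytes, read 794.1 and 2989, 904.2 and 2476, and 639.3 and 2066.

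For 167 genes the ratio could be compared between Mu11K A and Mu11K B, which are separate hybridisations. Whether both array types received the same RNA is not given in the sources used here. Across these genes the log2 ratios had a Pearson correlation of 0.705 and a Spearman correlation of 0.722, given as a description, since the genes share the samples. The sign was the same for 137 genes (82.0%), and 152 lay within 1 log2 of each other. Notch1, the receptor that commits progenitors to the T lineage, gave 2.47 (Mu11K A) and 2.79 (Mu11K B), and Top2a gave -2.46 and -2.43. Srm, the spermidine synthase, gave 1.90 and 1.26, and Rab18, a GTPase of vesicle traffic, gave -1.14 and -1.76. Among the widest gaps were those of Efhd2, with 2.16 and -0.35, Sema4b, with -1.53 and 0.36, and Mif, with 1.01 and -0.85. Canx, a chaperone of the endoplasmic reticulum, was lower on both, at -0.69 and -2.07.

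**Figure D3:**
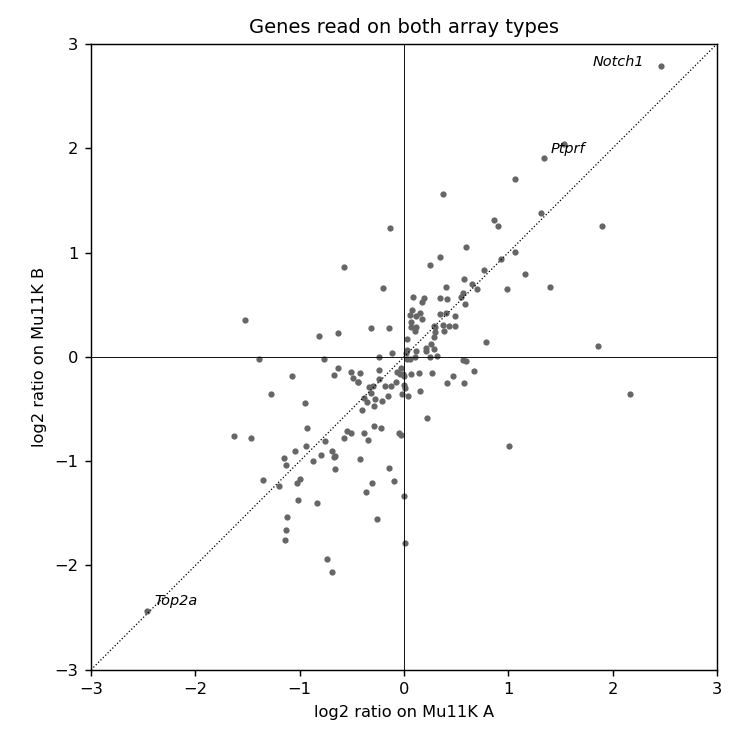
Log2 ratio of transgenic over wild type on Mu11K B (vertical) against Mu11K A (horizontal) for the 167 genes measured above the floor in both samples on both array types, 1 point per gene, with the dotted line marking equal ratios. Most points lie in the quadrants of equal sign (137 of 167), with Notch1 at the upper and Top2a at the lower end.

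Side by side with experiment 2, whose deposited values differ in form as given above, the leading differences were mostly smaller there. Of the 206 genes 2-fold higher on Mu11K, 183 were measured on U74A, where their median log2 ratio was 0.09, 107 were positive and 14 were 2-fold higher, against 0.855% of all genes. Of the 460 lower genes, 389 were measured, with a median of -0.06, 233 negative and 2 that were 2-fold lower, against 0.446% of all genes. Of the 25 genes measured on U74A that were 4-fold higher on Mu11K, 7 were 2-fold higher on U74A. Of the 43 measured there that were 4-fold lower on Mu11K, 30 were negative and 1 was 2-fold lower on U74A. Notch1 gave 0.30 on U74A as a mean over its probe sets, which differed. The brighter read 2299 in the transgenic and 2302 in the wild-type sample (-0.002), and the dimmer 343 and 226 (0.60). Top2a gave 0.40 and Mki67 0.28 on U74A, so both proliferation genes had the opposite sign there.

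Of the genes on Mu11K, 260 had no U74A probe set that named them alone, though U74A probe sets with several symbols or none may read them. Of these genes, 149 were above the floor on Mu11K. Their median log2 ratio was -0.08, with 64 positive, 3 genes 2-fold higher and 27 lower, where the shares over all genes were 5.25% and 11.7%. The 3 higher genes were Ankrd54, at 274.3 against the floor, Ly6c2 and Numbl. Ly6c2, a Ly6-family surface antigen, read 673.2 in the transgenic and 322.0 in the wild-type sample on Mu11K A and 1003 and 308.3 on Mu11K B. Numbl, a relative of the Notch antagonist Numb, read 217.7 against the floor. The largest lower difference was that of Chn1, at -2.29, followed by Samsn1 at -2.21. Sertad2, a regulator of transcription, read 286.9 and 1193. Neat1, a long noncoding RNA of nuclear paraspeckles, read 260.4 and 934.2. Cenpw, a kinetochore protein, read 539.4 and 1861. Selenop, the plasma selenium carrier, was lower at both probe sets, with 928.2 and 3068 at one and 170.1 and 549.4 at the other. Hmmr, a spindle-associated hyaluronan receptor, was at the floor against 846.0 at one probe set and read 805.5 and 1556 at the other.

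Gene groups are described by 45 lists. The median log2 ratio of the members above the floor and the number that were positive or at least 2-fold different are to be read beside those of all genes, which had a median of -0.07, 45.6% positive, 5.25% at least 2-fold higher and 11.7% lower. The ratios also varied with level and genomic length, as given at the end, and the distance of a list from the median of all genes is also given after centring on length for several lists.

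**Figure D4:**
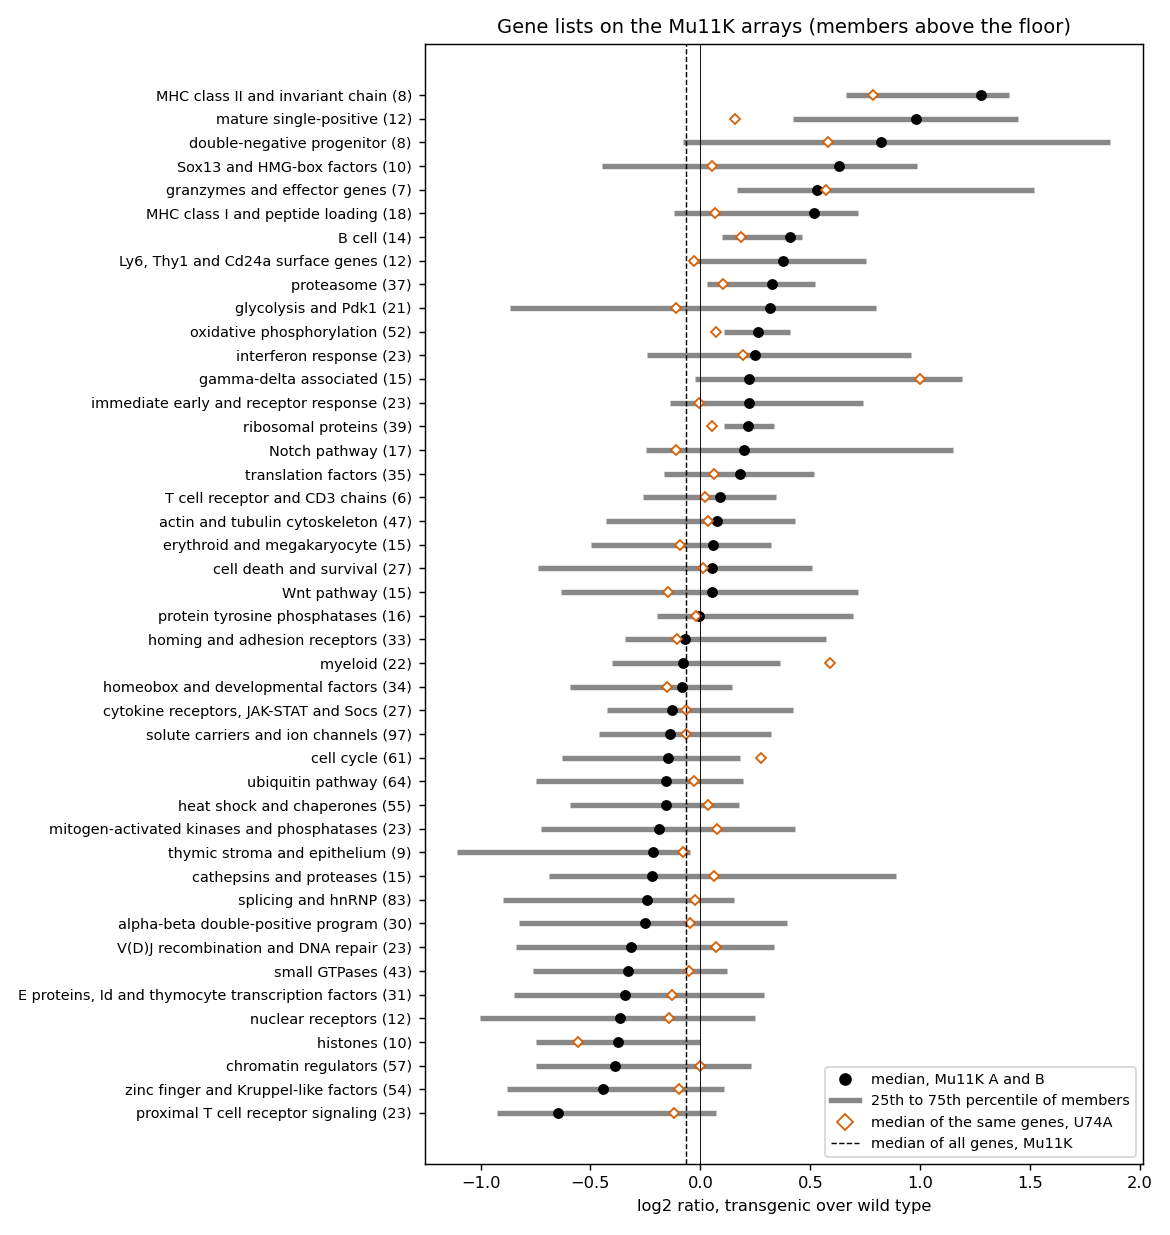
Median log2 ratio of transgenic over wild type for each of 44 lists with more than 4 members above the floor on Mu11K A and B (filled circle; number of such members in brackets), with the interquartile range of the members (bar), the median of the members measured on U74A (diamond) and the median of all genes on Mu11K (dashed line). Under the trimmed mean, class II genes stand at 1.27 and proximal T cell receptor signaling genes at -0.65; the order of the lists depends on the setting, and under median scaling the chromatin, cell cycle, splicing and alpha-beta lists, among others, moved to or above zero.

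Sox13 and other HMG-box genes had a median of 0.63, with 6 of 10 members positive and 3 at least 2-fold higher. The median was 0.20 when both samples had to be above the floor, which leaves out Sox13, read from the transgene, and Cic. The remaining higher gene was Tcf7l1, a TCF-family repressor of the Wnt pathway, with 1938 and 954.0. Lef1, a TCF-family factor of thymocytes, read 4008 and 2196. Hmgb1, an abundant DNA-bending protein, read 4824 and 8874 and lay on the other side. Wnt pathway genes had a median of 0.05, and against the median of all genes this list changed sign with a floor of 50 or 200, when both samples had to be above the floor, and after centring on length. The target gene Myc gave 1.29, the inhibitors Axin1 and Tle3 1.06 and 1.15, and Ctnnb1, the beta-catenin gene, -0.99.

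Notch pathway genes were spread in both directions, with a median of 0.20, 10 of 17 positive, 6 at least 2-fold higher (5.25% of all genes) and 2 lower (11.7% of all genes). These genes are long, with a median of 45.9 kb, and their distance from the median of all genes went from 0.26 to 0.47 after centring on length. The higher genes were the receptors Notch1 and Notch3, the target Dtx1, the glycosyltransferase Rfng, the corepressor Tle3 and Numbl. Notch3 read 3479 in the transgenic and 1304 in the wild-type sample. The lower genes were both sheddases that cleave the receptors after ligand binding. Adam17 was at the floor against 414.0, and Adam10 read 259.6 and 762.6 at one probe set and 127.8 and 449.7 at the other. The nuclear mediator Rbpj gave -0.12 and the target Hes5 -0.25. On U74A the median of the list was -0.11. Double-negative progenitor genes overlap with these, and their median of 0.82 over 8 members rests on Dtx1, Notch1, Notch3 and Ptcra. Ptcra, the alpha chain of the pre-T cell receptor, read 952.9 and 312.3, whereas Cd34 gave -0.74 and Kit was at the floor in the transgenic sample and at 115.8 in the wild type.

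Gamma-delta associated genes had a median of 0.22, with 11 of 15 positive, and on U74A the median was 1.00. Of these genes, 5 were at least 2-fold higher (33.3%, against 5.25% of all genes) and 1 lower (6.67%, against 11.7%). Sox13, read from the transgene, is counted among the positive and higher genes. The higher genes beside Sox13 and Gzma were the Src-family kinase Blk, the calcium-binding protein S100a6 and the gamma variable segment Trgv1. Blk read 712.5 and 253.8 at one probe set and 236.4 against the floor at the other. Trgv1 read 591.0 and 197.1 at its brighter probe set. Trgv4 gave 0.17 on Mu11K and 2.10 on U74A. The transcription factor Maf was the lower gene, at -1.20, and Id3 and Egr2 gave 0.22 and -0.30.

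Genes of the alpha-beta double-positive program had a median of -0.25, with 11 of 30 positive, 2 at least 2-fold higher (6.67%, against 5.25% of all genes) and 6 lower (20%, against 11.7%), and 0.21 under median scaling. Against the median of all genes the list stayed on the lower side under all 4 scalings. The lower genes were Cd28, Rag2, Nfatc3, Ikzf1, Tcf12 and Cd1d1. Rag2, a subunit of the recombinase, read 459.8 in the transgenic and 1871 in the wild-type sample, while its partner Rag1 read 7299 and 10728. The log2 ratio of Rag2 on U74A was 0.08. Tcf12, the E protein HEB, read 824.8 and 2223, and Ikzf1, the Ikaros factor, read 560.8 and 1600.0. Cd1d1, which presents lipids to natural killer T cells, read 308.3 and 669.2. The higher genes were Ly6d and Zap70, the kinase of the T cell receptor, which read 5309 and 2589. Over the wider list of E proteins, Id proteins and thymocyte transcription factors, the median was -0.34 with 12 of 31 positive, and 0.04 under median scaling. Id1, an inhibitor of E proteins, gave 1.30, against -1.67 for Elf1 and -1.33 for Tcf4.

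Proximal T cell receptor signaling genes had a median of -0.65, with 6 of 23 positive, 3 at least 2-fold higher and 5 lower. The lower genes were Nfatc3, Sla, Pik3r1, Cbl and Ptpn22. Sla, an adaptor that promotes receptor degradation, read 1596 and 4829. Pik3r1, the regulatory subunit of PI3 kinase, was at the floor against 276.2. Cbl, a ubiquitin ligase, read 760.9 and 1651, and the phosphatase Ptpn22 read 673.4 and 1437. Syk, the relative of Zap70 used at the pre-receptor stage, read 771.5 and 291.1. These genes are long, with a median of 66.2 kb against 19.2 kb for all genes, and their distance from the median of all genes was -0.58, but -0.28 after centring on length and -0.23 with the brightest probe set of a gene. The receptor chains themselves gave 0.42 for Cd3e, 0.07 for Cd3d and -0.37 for Cd3g. The median over the 6 chains was 0.09, and against that of all genes it changed sign after quantile normalization and loess centring.

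Class II genes had a median of 1.27, with 8 of 8 members positive, 5 at least 2-fold higher and none lower, and 0.79 on U74A. Class II molecules present peptides to CD4 cells and mark B cells, myeloid cells and epithelium. H2-Ab1 read 1924 in the transgenic and 638.8 in the wild-type sample, and H2-DMa, an exchange factor for peptides, read 426.7 against the floor. The invariant chain Cd74 read 4243 and 1808, and Ctss, the protease that trims it, read 404.1 and 162.0. The 14 B cell genes above the floor had a median of 0.41, with 12 positive and 1 at least 2-fold higher, namely Blk. Ighm read 3911 and 2949 on Mu11K A, and Ms4a1 gave -0.14. The 22 myeloid genes had a median of -0.08, with 10 positive and 1 at least 2-fold higher, namely Lgals3. Lyz2, the lysozyme of myeloid cells, read 1627 and 2024, whereas its log2 ratio on U74A was 1.35. The part of these cells in the class II values was not tested.

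Class I and peptide loading genes had a median of 0.52, with 13 of 18 positive, 3 at least 2-fold higher and 2 lower, and 0.07 on U74A. The higher genes were H2-D1, H2-K1 and H2-Q1. H2-K1 read 1654 and 435.1 at one probe set and 3719 and 1478 at the other, and H2-Q1 read 366.3 and 137.3. The immunoproteasome subunit Psmb9 read 1667 and 744.0 on Mu11K A and 2324 and 1337.7 on Mu11K B. The lower genes were the chaperone Canx and Cd1d1. Class I genes are near-identical, and probe sets may read several of them. Genes that mark mature single-positive cells had a median of 0.98, with 10 of 12 positive and 6 at least 2-fold higher, but H2-D1 and H2-K1 are among them. The others were Socs3, Ly6c2 and the integrin chains Itgb7 and Itgae, at 1.18 and 1.04. On U74A the median was 0.16.

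Interferon response genes had a median of 0.25, with 14 of 23 positive, 5 at least 2-fold higher and 2 lower. The higher genes named by the rule were Isg15, Irf7, Usp18 and Irf8. Irf7, a regulator of the interferon response, read 502.2 and 164.2, and Usp18, which removes Isg15 from proteins, read 444.1 and 154.5. The lower genes were Ifit2, at the floor against 343.0, and Gbp2, with 141.1 and 337.1, so the list did not move as a block.

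Cell cycle genes had a median of -0.15, with 22 of 61 positive, 1 at least 2-fold higher and 9 lower (14.8%, against 11.7% of all genes), whereas the median on U74A was 0.28. Under median scaling the Mu11K median was 0.23. The lower genes named by the rule were Mki67, Top2a, Ccng1, Rb1, Kif4 and Rbl1. Rb1, the retinoblastoma protein that restrains entry into S phase, read 196.1 and 815.0, and its relative Rbl1 read 130.9 and 410.3. Ccng1, a target of p53, read 139.5 and 580.1, and the chromosome kinesin Kif4 was at the floor against 320.4.

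Genes that act on RNA and chromatin had medians under that of all genes. Splicing and hnRNP genes had a median of -0.24, with 28 of 83 positive, none at least 2-fold higher and 18 lower (11.7% of all genes), and -0.03 on U74A. Hnrnph2 read 113 and 445, the splicing factor Srsf5 1188 and 3765, and the helicase Ddx3x 702 and 2056 at one probe set and 984 and 2761 at the other. Chromatin regulators had a median of -0.39, with 21 of 57 positive, 2 higher and 10 lower, and -0.00 on U74A. These genes are long, with a median of 34.6 kb, and their distance from the median of all genes went from -0.32 to -0.13 after centring on length. Ezh2, the methyltransferase of Polycomb, read 657.1 and 1535, and Hdac5, a histone deacetylase, read 468.3 against the floor while its U74A log2 ratio was -0.66. Zinc finger genes had a median of -0.44, with 17 of 54 positive, 1 higher and 13 lower. Zfp148 read 182 and 839, and Zfp292 read 402 and 1445. Under median scaling these 3 medians were 0.07, -0.00 and -0.11, and all stayed on the lower side of the median of all genes. Genes of V(D)J recombination and DNA repair had a median of -0.32, or 0.14 under median scaling, but against all genes the list changed sign when both arrays had to be above the floor and after centring on length. Msh6, a mismatch repair protein, gave -1.57 and Prkdc, the kinase of end joining, -1.42.

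Ribosomal protein genes had a median of 0.21 with 34 of 39 positive, none at least 2-fold higher and 1 lower, namely Rpl5 with 524 and 1119. Oxidative phosphorylation genes had a median of 0.26 with 43 of 52 positive, 1 higher and 1 lower. Ndufa3 of complex I read 6176 and 3053.5, and Cox17, a copper chaperone, read 153 and 328. Proteasome genes had a median of 0.33 with 28 of 37 positive, and Psmd9 read 610 and 272. These genes are short, with median lengths of 3.17, 7.39 and 11.0 kb. Against the median of all genes, the ribosomal list stood at 0.28, but at 0.03 after quantile normalization, 0.08 after loess centring and 0.06 after centring on length. The oxidative phosphorylation list stood at 0.33, and at 0.09, 0.12 and 0.17 in the same order. The proteasome list stood at 0.39, and at 0.23, 0.26 and 0.27. Glycolysis genes had a median of 0.32 with 12 of 21 positive, 2 higher and 3 lower. Pfkl, a phosphofructokinase, read 601.8 and 199.1, while P4ha1, a hypoxia-responsive prolyl hydroxylase, gave -1.17 and Slc16a1, a lactate transporter, -1.12. Chaperones had a median of -0.16 with 23 of 55 positive, 3 higher and 10 lower. Hsp90aa1 read 1659 and 4229.8 on Mu11K A and 1431 and 3241 on Mu11K B. Dnajc15, a mitochondrial cochaperone, read 3635 and 1088.

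Cathepsins and other proteases had a median of -0.22, with 7 of 15 positive, 4 at least 2-fold higher and 3 lower, and the median was 0.05 under median scaling. Against the median of all genes the list turned to the higher side when both arrays had to be above the floor, when each gene was read by its brightest probe set, and with a floor of 200. The lower genes were Ctse, Ctsl and Timp1. The higher genes included Furin, a proprotein convertase, with 980.7 and 292.7, and Ctsh, with 274.6 against the floor. Immediate early genes had a median of 0.22 with 14 of 23 positive and 3 at least 2-fold higher (13.0%, against 5.25% of all genes), namely Nr4a1, Myc and Junb. Against the median of all genes the list stood at 0.29, but at 0.06 after centring on length. Nr4a1, an early target of receptor signaling, read 2214 and 749.1.

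Apart from the Ly6-family and effector lists, lists of signaling and surface genes lay near the median of all genes or changed sides. Cytokine receptor, JAK-STAT and Socs genes had a median of -0.13, with 13 of 27 positive, 2 at least 2-fold higher and 1 lower, and 0.20 under median scaling, so the value of Socs3 was not shared by its list. Jak2, a kinase of cytokine receptors, gave -1.34. Of 47 cytokine and chemokine genes only 4 passed the floor, with a median of -0.42 and 1 positive. Cell death and survival genes had a median of 0.05 with 14 of 27 positive, 1 higher and 3 lower, and homing and adhesion receptors -0.07 with 16 of 33, 4 higher and 4 lower. The integrin chain Itga6 gave -1.11, and the adhesion molecule Icam1 1.06. Ly6-family and related surface genes had a median of 0.38 with 8 of 12 positive and 2 higher, and granzymes and effector genes 0.53 with 6 of 7 positive and 2 higher. Against the median of all genes these stood at 0.44 and 0.60, and neither lay below it under any setting tried. Mitogen-activated kinases and their phosphatases gave -0.19 with 9 of 23 positive, 1 higher and 2 lower, and tyrosine phosphatases -0.01 with 8 of 16, 1 higher and 1 lower. Both of these lists hold long genes and lay above the median of all genes after centring on length.

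Of the other lists, translation factors had a median of 0.18 with 23 of 35 positive, 1 at least 2-fold higher and 4 lower. Eif5a, an elongation factor, read 7229 in the transgenic and 2621 in the wild-type sample. Actin and tubulin cytoskeleton genes had a median of 0.07 with 27 of 47 positive, 4 higher and 2 lower. Ubiquitin pathway genes had a median of -0.16 with 24 of 64 positive, 3 higher and 12 lower, and Nedd4, a ubiquitin ligase, read 105 and 437. Small GTPases had a median of -0.33 with 14 of 43 positive, 2 higher and 6 lower, histones -0.38 with 3 of 10, 0 and 1, and nuclear receptors -0.37 with 4 of 12, 2 and 3. Homeobox and developmental factors had a median of -0.08 with 13 of 34 positive, 1 higher and 4 lower, and solute carriers and ion channels -0.14 with 41 of 97, 6 and 8. Erythroid genes had a median of 0.06 with 8 of 15 positive and 2 higher, namely the globins Hbb-b2 and Hba-a1. Stromal genes had a median of -0.21 with 2 of 9 positive, 1 higher and 3 lower, and the tight junction gene Cldn4 gave 1.88, against -1.29 for Vim. Under median scaling the medians of the ubiquitin, small GTPase, homeobox, solute carrier and stromal lists were above zero.

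Both the level and the genomic length of a gene moved with its ratio. With probe sets above the floor in both samples divided into 5 groups by mean log2 intensity, the median log2 ratio went from -0.22 in the dimmest to 0.18 in the brightest group on Mu11K A. On Mu11K B it was -0.23 in the dimmest, -0.34 in the next and 0.14 in the brightest group. With 3922 genes divided into 5 groups by genomic length, the median went from 0.17 in genes up to 6.43 kb to -0.36 in genes above 50.7 kb. The share of 2-fold lower genes was 3.82% in the shortest and 21.9% in the longest group, and that of higher genes was 6.88% and 3.44%. The Spearman correlation of log2 ratio with length across genes was -0.297, as a description over genes that share the samples. On U74A the medians of the same groups went from 0.02 to -0.05. Centring on length also moved the distance of other lists from the median of all genes by over 1.5 times. Among these, class I genes went from 0.58 to 0.35, B cell genes from 0.47 to 0.28, E proteins and related factors from -0.28 to -0.16, cell cycle genes from -0.08 to -0.21 and histones from -0.31 to -0.53. The part of length and level in the gene lists was not tested beyond the centred values given with them. Long genes among the leading lower ones include Chn1, Abca1 and Nipbl, whereas the bright Actb and H2-D1 are short. Others went the other way: Ptprf, of the longest group, was higher at 1.72, and Cenpw, of the shortest, was lower at -1.79.

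**Figure D5:**
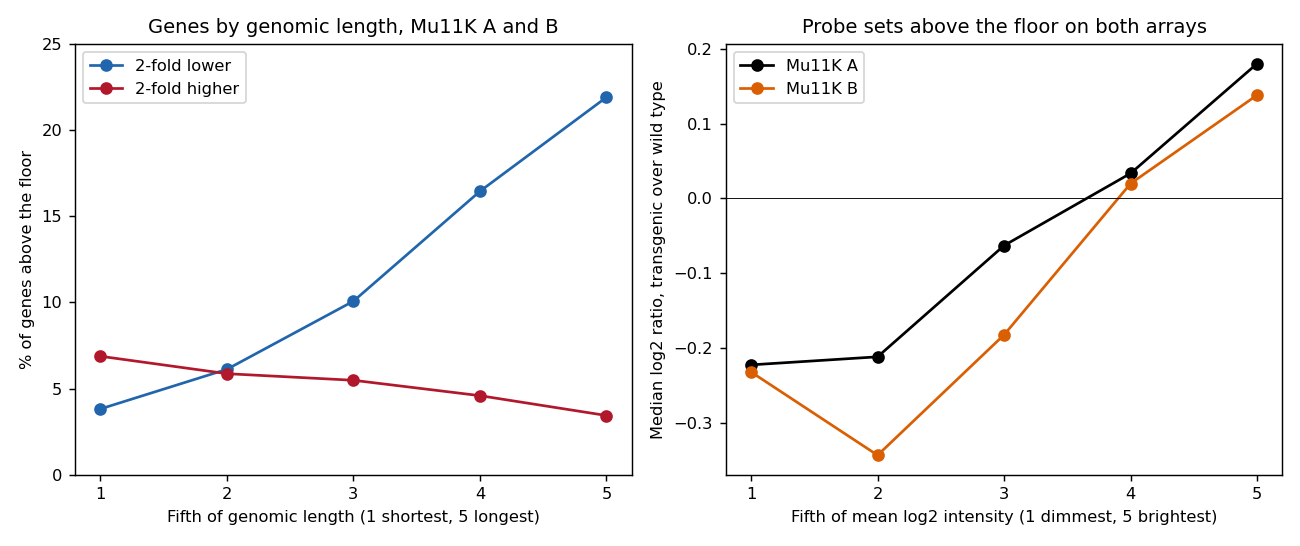
Left, percentage of genes above the floor that were at least 2-fold lower (blue) or higher (red) in the transgenic sample, in 5 groups by genomic length (1 shortest, 5 longest), on Mu11K A and B; right, median log2 ratio of transgenic over wild type in 5 groups by mean log2 intensity (1 dimmest, 5 brightest) on Mu11K A (black) and Mu11K B (orange). The share of lower genes goes from 3.82% to 21.9% with length under the trimmed mean, and the median ratio on Mu11K A goes from -0.22 to 0.18 with level.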

How the data were processed

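The deposited files of the 4 Mu11K arrays hold 1 intensity per probe set on a linear scale, with negative values. Per the series text, Affymetrix Microarray Analysis Software 4 and 5 was used; neither the version behind each array's intensity values nor the scaling the authors used is given in the sources used here. Control probe sets (55 per array type) and 21 Mu11K A probe sets without a wild-type value were left out. Arrays were scaled to a common 2% trimmed mean of 500, floored at 100 and log2-transformed, and the transgenic value was divided by the wild-type value. A probe set named a gene only where the platform annotation gave 1 symbol. This held for U74A too, so genes given as without a U74A probe set lack only a probe set with their symbol alone. Counts used probe sets that passed the floor in either sample. Only differences past 2-fold were counted, with no p-value, since each genotype had 1 array per type. The number of arrays limits the precision.

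The genes named are Sox13; per array type and direction the 12 leading probe sets above the floor in both samples and the 8 with the largest bound; the 12 leading genes per direction with no U74A probe set; up to 6 leading members of each list, or any member of 8 lists; genes with 3 or more probe sets; and up to 2 unnamed probe sets per direction. Of the leading Mu11K B probe sets, 1 is not reported here. Cell type markers are named too, and Mif, Sema4b and Srm were chosen after their values were seen. The members and lists were chosen with earlier results of these data known. Alternatives were floors of 50 and 200, median, quantile and loess scaling, both filters on low values, the brightest probe set, folds of 1.5 and 3, and centring on genomic length, which was chosen after seeing the data. Promoters and lengths came from RefSeq tables of GRCm38.p6. The counting was tested on simulated data. Python 3.11.15, pandas 2.3.3, numpy 2.4.6, scipy 1.17.1, statsmodels 0.14.6 and matplotlib 3.10.9 were used.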

Additional observations from a re-analysis of the deposited data

Results flagged for a closer look

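Ly6d, a surface antigen of the Ly6 family, went in opposite directions in the 2 experiments. On Mu11K it read 3641 in the transgenic and 1480.3 in the wild-type sample, a log2 ratio of 1.30. On U74A its probe set above the floor read 4973 and 12932, a log2 ratio of -1.38, and another was at the floor in both samples. The difference between the experiments was not tested.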

How the results depend on the processing

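No paired analysis was possible because the values come from no test, with 1 array per genotype and array type. The counts of 2-fold differences moved with the scaling, the floor and the fold. With equal medians, 370 probe sets were higher and 238 lower on Mu11K A, and 529 and 250 on Mu11K B. With a floor of 200, 290 were lower on Mu11K A and 307 on Mu11K B; a higher floor both leaves out probe sets and raises low values, and these were not separated. Past a fold of 3, 51 were higher and 110 lower on Mu11K A, and 77 and 162 on Mu11K B; past 1.5, 463 and 938, and 512 and 983. The other counts of probe sets stayed within 1.5 times. Over genes, 458 were higher and 221 lower with equal medians, against 206 and 460, and 138 and 291 with a floor of 200. The 22 leading lower genes above the floor in both samples kept a 2-fold difference under every scaling, floor and filter tried. Of the 23 leading higher genes, 21 had a 2-fold difference as a gene in the main setting and 20 to 23 in the others. With the brightest probe set 1 leading gene changed sign, namely Cbx1, at -0.84. These genes were chosen for large ratios on the same arrays, so the numbers kept are no independent check. Of the 206 higher genes, between 137 (floor of 200) and 205 (median scaling) kept a 2-fold difference, and of the 460 lower genes between 221 (median scaling) and 450 (floor of 50). With centring on genomic length, chosen after seeing the data, 188 and 296 kept it. Prpsap1 turned to -0.23 when both arrays had to be above the floor, since its probe set at the floor then drops out. Of the 45 list medians, 6 moved under median scaling and 7 without a filter on low values. Intensities near the floor limit what can be read: 7459 of 13048 probe sets passed it on at least 1 array.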
